A study of Mus musculus with 8 samples.

Results

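The 44 genes described here encode the enzymes that take glucose-6-phosphate to pyruvate, bring pyruvate into the mitochondrion and oxidise its carbon in the citrate cycle, together with the malic enzymes and the shuttles that carry reducing equivalents across the inner mitochondrial membrane. They were listed by function, though with earlier results of these data known. They make up 44 of the 46955 uniquely named entries of the deposited expression table. By role, 13 belong to glycolysis, 8 to the entry of pyruvate (the mitochondrial pyruvate carrier, pyruvate dehydrogenase and pyruvate carboxylase), 13 to the citrate cycle and 10 to the malic enzymes and shuttles. Levels are RPKM, reads scaled by the length of the gene and by the size of the library, so genes can be set side by side. Of the members, 43 reached 1 RPKM in at least 2 of the 8 libraries and entered the tests. The malic enzyme gene Me3 did not.

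RNA was sequenced from cells that had been sorted by fluorescence from the pancreatic islets of adult mice. All animals, by the design text, were to carry Ins1-H2b-mCherry, a nuclear red reporter under the Ins1 promoter, together with Gcg-cre, a Cre recombinase driven from the glucagon gene, and a floxed allele that turns on YFP, a yellow fluorescent protein, once Cre has acted. Beta cells were sorted for the red reporter (3 libraries: replicates 1 and 2 female, replicate 3 male). Alpha cells were sorted for YFP (3 libraries: replicates 1 and 2 male, replicate 3 female), and the cells called transdifferentiated, taken by the submitters to be beta cells that descend from alpha cells, for both (2 libraries: replicate 1 male, replicate 2 female). Each library held the islet cells of 10 to 12 animals pooled by sex. The design text also speaks of bitransgenic females without saying which libraries they gave. Islets had been cultured overnight at 5.5 mM glucose, and no group received a treatment. The YFP label records activity of Gcg-cre at any time in a cell's history, and the red reporter that of the Ins1 promoter. Beta replicates 1 and 2 share a title number, as do alpha replicates 1 and 2, and nothing says that these came from separate pools. The p-values therefore measure the spread between these libraries, which may be technical. In bulk samples such as these, fewer cells of a type and less RNA per cell cannot be told apart.

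Glycolysis turns glucose into pyruvate in the cytosol, and the pyruvate is either turned into acetyl-CoA by pyruvate dehydrogenase or carboxylated to oxaloacetate by pyruvate carboxylase, the route that refills the citrate cycle. Beta cells are known for coupling insulin release to this oxidation: they hold little lactate dehydrogenase, pass cytosolic NADH to the mitochondrion through the malate-aspartate and glycerol phosphate shuttles, and export citrate, malate and isocitrate for cytosolic reactions that make NADPH. Alpha cells are known to oxidise less glucose and to have little pyruvate carboxylase.

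Reads recovered from the steps of the RPKM values came to between 13194413 and 21906833 in the beta and alpha libraries, but only 1276878 and 2222394 in the transdifferentiated libraries 1 and 2. A tested member rested on 65 to 25906 reads in the deeper libraries and on 3 to 2576 in the transdifferentiated ones, where 10 members had fewer than 50 reads in at least 1 library. Sorted identities matched their markers. The summed RPKM of 8 beta cell markers, which include the insulin genes, was 186222 to 242548 in beta, 139989.7 to 147545 in transdifferentiated and 2492 to 3188 in alpha libraries, and that of 6 alpha cell markers, with glucagon among them, was 620.5 to 1958, 20181 to 20271 and 175655 to 204035. Delta cell markers summed to 312 to 891 RPKM in beta, 2967 to 3096 in transdifferentiated and 1371 to 3197 in alpha libraries. PP and epsilon cell markers summed to 589.7 to 1274, 8249 to 11439 and 7961 to 13025 in the same order, duct markers to 193 to 323, 195 to 244 and 679 to 1700.5, and immune markers to 70.3 to 81.2, 19.3 to 26.0 and 9.06 to 26.5. Endothelial and mesenchymal markers summed to at most 5.95 RPKM in any library. Acinar markers varied within each group, from 109 to 3222 RPKM in beta, 290 to 827 in transdifferentiated and 38.0 to 2264 in alpha libraries. No listed marker was at 0 in all libraries. The part of these admixtures in the results was not tested.

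Most of these enzymes were expressed at lower levels in alpha than in beta cells. Alpha cells had less RNA for 25 of the 43 tested members, more for 1 (Mpc2), and 17 did not pass the test (limma with Benjamini-Hochberg adjustment over 13172 genes, adjusted p under 0.05). Over all tested genes, 26.7% were lower and 16.9% higher in the same comparison. The largest differences were those of pyruvate carboxylase (Pcx) and fumarase (Fh1). The median difference of the members, alpha minus beta, was -0.56 on the log2(RPKM + 0.5) scale, which is the scale of all log2 values below, against -0.05 for all genes. By role, 7 of 13 glycolysis members, 4 of 8 in pyruvate entry, 8 of 13 in the citrate cycle and 6 of 9 tested shuttle members were lower. Without alpha replicate 3 the count of lower members fell to 14, and that of all genes called in either direction from 5743 to 3117. Mpc2 was no longer called without any one of the 6 beta and alpha libraries.

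Few of these genes were called between transdifferentiated and beta cells, and many between transdifferentiated and alpha cells. Against beta cells 1 member was higher (Me1), 2 were lower (Fh1 and Idh1) and 40 did not pass the test, where 9.1% of all genes were higher and 2.9% lower. The members' median was -0.14, and that of all genes was 0.09. Against alpha cells 18 members were higher and 0 lower, where 23.2% of all genes were higher and 6.67% lower, with a median of 0.34 for the members and 0.17 for all genes. In the count of 0, 25 of the 43 members had an unadjusted p under 0.05 in either direction, and limma voom on the recovered reads also called 0 lower. By role, the 18 comprise 4 glycolysis, 3 pyruvate entry, 5 citrate cycle and 6 shuttle members. All but Me1 of these, 17 members, were also among the 25 with less RNA in alpha than in beta cells. These 2 sets of calls use the same 3 alpha libraries, so their overlap is partly built in. The share of such an overlap over all genes was not counted. Counted by libraries that do not overlap, 32 of the 43 tested members were lower and 1 higher in alpha than in beta cells (35.8% and 24.8% of all genes), 12 lower and 2 higher in transdifferentiated than in beta cells (15.3% and 31%), and 26 higher and 2 lower in transdifferentiated than in alpha cells (40% and 13.1%). Both comparisons of transdifferentiated cells use the same transdifferentiated libraries, and each rests on 2 of them.

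The size of the second comparison depends on how libraries are scaled. Median-ratio scaling moved the median of all genes for transdifferentiated minus alpha cells from 0.17 to -0.05. Then 5 members were higher and 1 was lower, where 3169 of 13172 genes were called in either direction. Those 5 were Pcx, Eno2, Idh2, Mdh1 and Pfkm, and Mpc2 was the lower one. For transdifferentiated minus beta cells the same scaling moved the median of all genes from 0.09 to -0.06. It gave 0 higher and 7 lower members (Fh1, Idh1, Idh3a, Mdh1, Got2, Gpd1 and Mpc1), where 1780 genes were called in either direction. A count model on the recovered reads (limma voom) called 31 members lower in alpha than in beta cells, where it called 7065 of 13172 genes in either direction. It called 8 higher in transdifferentiated than in alpha cells (2167 genes in either direction), and against beta cells Fh1 alone as lower and 0 as higher (553 genes).

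**Figure D1:**
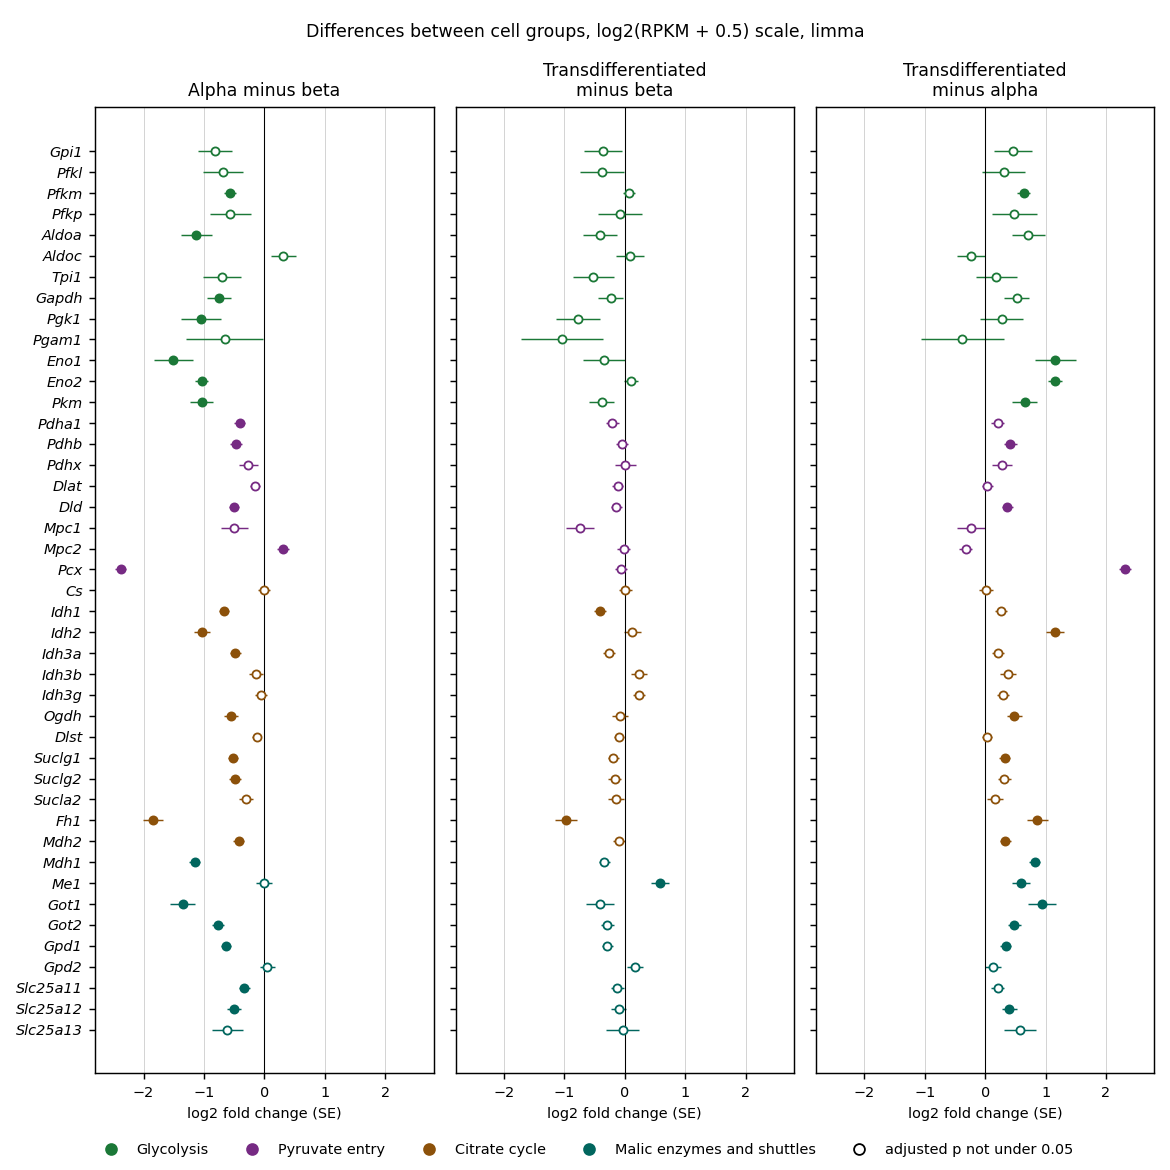
Differences between cell groups for the 43 tested members, as log2 fold change on the log2(RPKM + 0.5) scale with its standard error (horizontal axis), one row per gene and one panel per comparison. Filled points have an adjusted p under 0.05: 26 in the first panel, 3 in the second and 18 in the third, with Pcx far to the left in the first panel and far to the right in the third.

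Glycolysis genes that differed did so towards lower levels in alpha cells. Eno2, the neuronal form of enolase, which makes phosphoenolpyruvate, stood at 34.5, 27.8 and 28.1 RPKM in beta replicates 1 to 3, at 31.9 and 32.7 in transdifferentiated replicates 1 and 2, and at 14.4, 14.7 and 13.6 in alpha replicates 1 to 3. The alpha libraries lay below all others and the transdifferentiated ones within the beta range. Eno2 fell by 1.04 in alpha against beta cells (SE 0.11, adjusted p = 0.000344) and was higher by 1.15 in transdifferentiated than in alpha cells (SE 0.12, adjusted p = 0.000634). Both calls were kept under all 18 alternative settings tried.

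Its ubiquitous partner Eno1 stood at 24.9, 23.4 and 39.7 RPKM in beta, 16.9 and 30.7 in transdifferentiated and 8.61, 13.8 and 8.61 in alpha libraries. No alpha library reached the lowest library of the other groups, but replicates differed more than for Eno2. Eno1 fell by 1.51 in alpha against beta cells (SE 0.32, adjusted p = 0.0083), a call lost without beta replicate 3 (adjusted p = 0.0691) or alpha replicate 3 (0.0648). Against alpha cells, transdifferentiated cells were higher by 1.16 (SE 0.34, adjusted p = 0.0402), with 9 of 18 alternatives keeping the call, and leaving out transdifferentiated replicate 2 gave an adjusted p of 0.169.

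Pkm, pyruvate kinase, which makes pyruvate in the last step, was among the most abundant members. Its levels were 334, 359 and 448 RPKM in beta, 266 and 322 in transdifferentiated and 159, 239 and 176 in alpha libraries. The transdifferentiated libraries lay between the 2 reference groups without overlap. Pkm fell by 1.04 in alpha against beta cells (SE 0.19, adjusted p = 0.00447, kept under all 18 alternatives) and was higher by 0.65 in transdifferentiated than in alpha cells (SE 0.20, adjusted p = 0.0486), which 11 of 18 alternatives did not keep, leaving out transdifferentiated replicate 2 (adjusted p = 0.232) among them.

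Aldoa, the main aldolase, which splits fructose-1,6-bisphosphate, had the highest level of any member. It stood at 402, 414 and 597 RPKM in beta, 312 and 406 in transdifferentiated and 180, 317 and 193 in alpha libraries. Alpha replicate 2 lay above transdifferentiated replicate 1, and transdifferentiated replicate 2 above beta replicate 1. Aldoa fell by 1.12 in alpha against beta cells (SE 0.26, adjusted p = 0.0115), and that call was lost without beta replicate 3 (adjusted p = 0.0941) or alpha replicate 3 (0.0785). Aldoc, the brain-type aldolase, was lower than Aldoa in every library, with 8.05, 11.3 and 16.8 RPKM in beta, 12.1 and 13.3 in transdifferentiated and 14.97, 17.3 and 14.6 in alpha libraries, and did not pass the test in any comparison.

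Pgk1 and Gapdh catalyse neighbouring steps, phosphoglycerate kinase and glyceraldehyde-3-phosphate dehydrogenase. Pgk1 stood at 12.3, 13.2 and 18.4 RPKM in beta, 6.09 and 11.1 in transdifferentiated and 4.83, 10.1 and 6.23 in alpha libraries, with 17 and 54 reads in the transdifferentiated libraries. It fell by 1.05 in alpha against beta cells (SE 0.33, adjusted p = 0.0382), a call lost on leaving out any one beta or alpha library except alpha replicate 2 (adjusted p 0.06 to 0.243). Gapdh stood at 15.6, 16.6 and 17.0 RPKM in beta, 11.7 and 16.5 in transdifferentiated and 8.32, 12.2 and 8.41 in alpha libraries. Alpha replicate 2 was the highest alpha library for both genes and reached the lower transdifferentiated library. Gapdh fell by 0.75 in alpha against beta cells (SE 0.19, adjusted p = 0.0178), lost without beta replicate 3 (0.106) or alpha replicate 3 (0.138).

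The levels of several glycolysis genes are uncertain because mouse carries many near-identical copies of them. Of all 50-base words in the protein-coding transcripts of Pgk1, 68.0% also occur in transcripts of other genes, and the share was 58.4% for Gapdh, whose words recur in 178 other genes, 49.5% for Eno1, 41.5% for Pgam1 and 23.7% for Pkm. Reads that match more than 1 place may have been dropped from such genes, and the sources used here do not give how they were counted. Gapdh at 8.32 to 17.0 RPKM beside Aldoa at 180 to 597 is therefore no measure of their relative RNA levels. Eno1b, the closest copy of Eno1, was listed at 0.397 to 4.52 RPKM.

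Among the remaining glycolysis members, Pfkm, the muscle form of phosphofructokinase, passed the test and is named here after its values were seen. Pfkm stood at 23.2, 20.7 and 26.9 RPKM in beta, 30.7 and 21.4 in transdifferentiated and 17.8, 17.6 and 15.4 in alpha libraries, so that alpha libraries were lowest and transdifferentiated replicate 1 highest. It fell by 0.56 in alpha against beta cells (SE 0.10, adjusted p = 0.00352) and was higher by 0.64 in transdifferentiated than in alpha cells (SE 0.10, adjusted p = 0.00473), the latter kept under all 18 alternatives. Gpi1 (glucose-6-phosphate isomerase), Tpi1 (triose phosphate isomerase), Pfkl and Pfkp (the liver and platelet phosphofructokinases) and Pgam1 (phosphoglycerate mutase) had differences of -0.82 to -0.57 between alpha and beta cells that did not pass. Pgam1 had only 3 reads in transdifferentiated replicate 1.

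**Figure D2:**
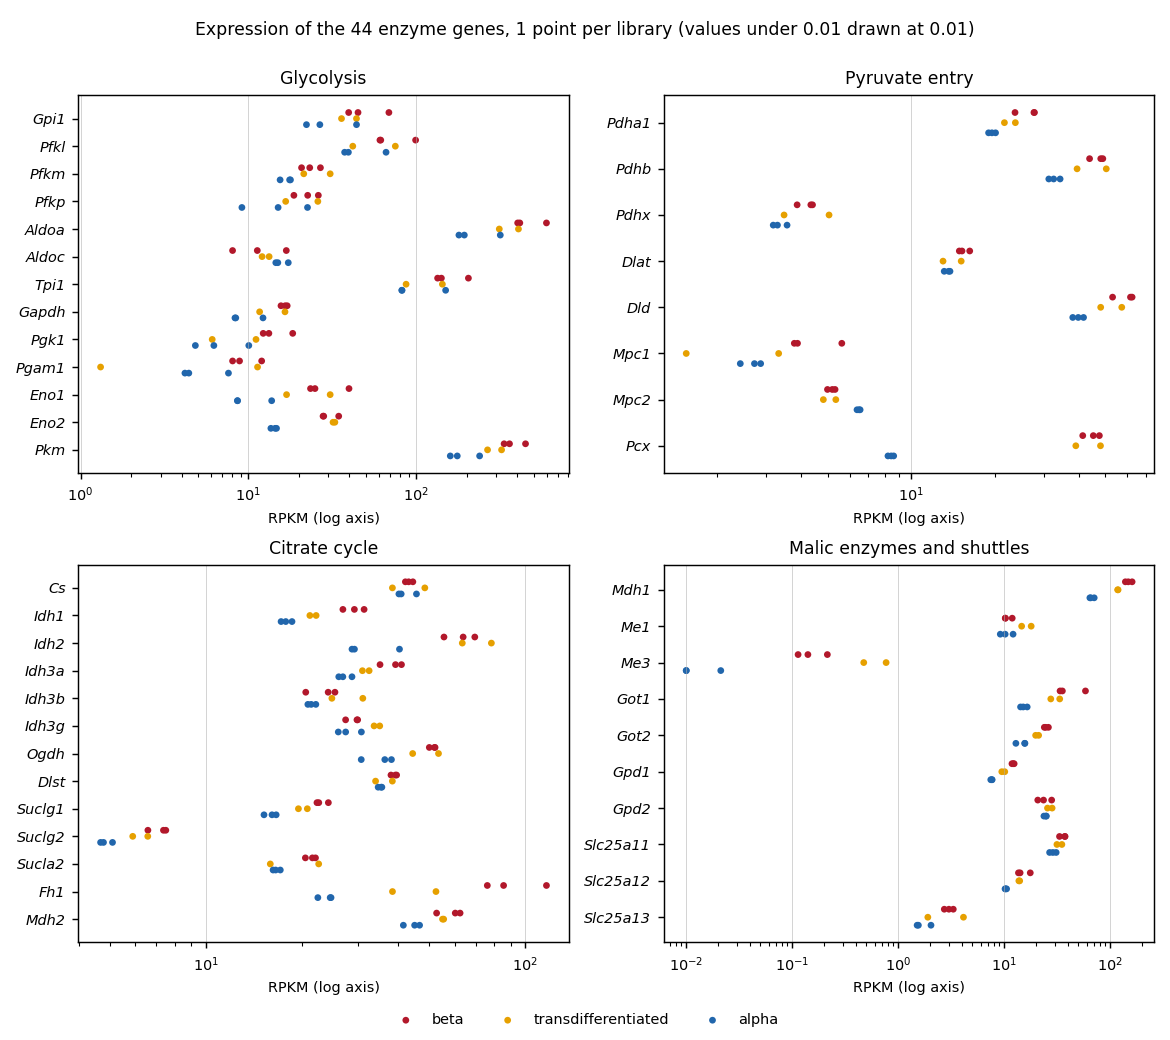
RPKM of the 44 members (log axis) in each library, one point per library, coloured by cell group and split by role. Pcx and Fh1 show the widest gaps between beta and alpha libraries among abundant members, Cs shows none, and Me3 lies below 1 RPKM in all 8 libraries.

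In the entry of pyruvate, 1 gene stood apart. Pcx, pyruvate carboxylase, which makes oxaloacetate from pyruvate, is at chr19:4510472-4621752 on the + strand (GRCm38, GENCODE M21). Pcx RNA stood at 45.2, 41.4 and 47.5 RPKM in beta, 48.0 and 39.1 in transdifferentiated and 8.63, 8.23 and 8.45 in alpha libraries. Transdifferentiated libraries spanned the beta range and no alpha library came near it. Mean levels were 44.7 ± 3.09 (SD, n = 3) in beta and 8.44 ± 0.200 (SD, n = 3) in alpha cells, a 5.30-fold difference, and Pcx fell by 2.38 on the log2 scale (SE 0.09, adjusted p = 5.14e-06). Against alpha cells, transdifferentiated cells were 5.16-fold higher (log2 2.31, SE 0.10, adjusted p = 2.35e-05), and against beta cells they differed by -0.06 (SE 0.10, adjusted p = 0.694). Both differences from alpha cells were kept under all 18 alternatives, with log2 values of -2.47 to -2.14 and 2.08 to 2.42. The Pcx transcripts shared no 50-base word with another gene. Transdifferentiated libraries held 255 and 362 Pcx reads, beta libraries 2911 to 3785 and alpha libraries 472 to 509.

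The 250 bases before the first of the 2 Pcx starts in the RefSeq promoter table (GRCm38.p6, chr19:4510222-4510471, + strand) are shown because Pcx has the largest difference of all members. Capitals mark the letters ACGTG on either strand (CACGT on the other strand), here also within CACGTG.
Pcx: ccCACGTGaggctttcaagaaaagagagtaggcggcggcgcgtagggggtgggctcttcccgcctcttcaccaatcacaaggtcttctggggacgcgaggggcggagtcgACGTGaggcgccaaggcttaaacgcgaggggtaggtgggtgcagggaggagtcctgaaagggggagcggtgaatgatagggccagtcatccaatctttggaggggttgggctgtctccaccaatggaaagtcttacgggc

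Pyruvate dehydrogenase, the other exit of pyruvate, differed less. Its catalytic subunit Pdha1 stood at 27.6, 27.7 and 23.6 RPKM in beta, 23.7 and 21.6 in transdifferentiated and 19.5, 20.1 and 19.0 in alpha libraries. Pdhb, the partner subunit, stood at 48.1, 48.9 and 43.8 in beta, 39.5 and 50.3 in transdifferentiated and 34.3, 31.2 and 32.5 in alpha libraries. Dld, the lipoamide dehydrogenase that this complex shares with 2-oxoglutarate dehydrogenase, stood at 62.3, 61.5 and 53.0 in beta, 48.0 and 57.2 in transdifferentiated and 38.1, 41.7 and 39.9 in alpha libraries. In all 3 genes every alpha library was below every other library. The falls in alpha against beta cells were 0.41 for Pdha1 (SE 0.10, adjusted p = 0.0133), 0.47 for Pdhb (SE 0.10, adjusted p = 0.00747) and 0.51 for Dld (SE 0.09, adjusted p = 0.00369). Quantile normalization ended all 3 calls (adjusted p 0.221 to 0.398). Transdifferentiated cells were higher than alpha cells for Pdhb (0.42, adjusted p = 0.0219) and Dld (0.37, adjusted p = 0.0261), both lost with either other scaling (adjusted p 0.349 to 0.656).

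The ratio of Pcx to Pdha1 RPKM was 1.64, 1.49 and 2.01 in beta, 2.03 and 1.81 in transdifferentiated and 0.443, 0.410 and 0.446 in alpha libraries. This ratio does not depend on how a library is scaled. Pcx RNA was thus above Pdha1 RNA in all beta and transdifferentiated libraries and below it in all alpha libraries. That order depends on the subunit chosen. Pcx was below Pdhb in beta replicates 1 and 2, transdifferentiated replicate 2 and all alpha libraries, and below Dld in every library. Of the 50-base words of Pdha1, 16.9% recur in other genes, and an exon of Map3k15 overlaps it on the other strand.

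Mpc1 and Mpc2 together form the carrier that lets pyruvate into mitochondria. Mpc2 was the one member called higher in alpha than in beta cells, at 5.31, 4.98 and 5.18 RPKM in beta, 4.81 and 5.34 in transdifferentiated and 6.47, 6.53 and 6.37 in alpha libraries. The alpha libraries lay above all others. The difference was 0.31 (SE 0.10, adjusted p = 0.0409) and 9 of 17 alternatives did not keep it, every omission of a beta or alpha library among them (adjusted p 0.0822 to 0.138). Mpc1 (4 and 15 reads in the transdifferentiated libraries), Pdhx and Dlat, which are the binding protein and the acetyltransferase of pyruvate dehydrogenase, did not pass in any comparison.

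Of the citrate cycle genes, Fh1 showed the largest difference. Fh1, fumarase, which hydrates fumarate to malate in mitochondria and also acts in the cytosol, is at chr1:175600374-175625635 on the - strand (GRCm38, GENCODE M21). It stood at 116, 85.4 and 76.0 RPKM in beta, 38.4 and 52.5 in transdifferentiated and 24.7, 24.5 and 22.4 in alpha libraries. The 3 groups did not overlap: each transdifferentiated library lay below every beta and above every alpha library. Fh1 was 3.88-fold higher in beta than in alpha cells (log2 alpha minus beta -1.84, SE 0.17, adjusted p = 0.000192, kept under all 18 alternatives). In transdifferentiated cells its mean was 49.1% of that in beta cells, a fall by 0.98 (SE 0.18, adjusted p = 0.0204), and 1.90-fold that in alpha cells (log2 0.86, SE 0.18, adjusted p = 0.0114). The fall against beta cells was also called on recovered reads (limma voom, adjusted p = 0.04), which were 162 and 386 in the transdifferentiated libraries. The rise over alpha cells was lost with median-ratio scaling (adjusted p = 0.0631), quantile normalization (0.0513) and without transdifferentiated replicate 2 (0.0608). The fall was lost without transdifferentiated replicate 1 (adjusted p = 0.0864), without beta replicate 3 (0.0663) and with no filter on low values (0.0508). Its transcripts shared no 50-base word with another gene.

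The 250 bases before the only Fh1 start in the same table (chr1:175625636-175625885, - strand) are shown for comparison with Pcx, since the mean Fh1 level of transdifferentiated cells lay closer to the alpha than to the beta mean and that of Pcx close to the beta mean. They hold no ACGTG on either strand.
Fh1: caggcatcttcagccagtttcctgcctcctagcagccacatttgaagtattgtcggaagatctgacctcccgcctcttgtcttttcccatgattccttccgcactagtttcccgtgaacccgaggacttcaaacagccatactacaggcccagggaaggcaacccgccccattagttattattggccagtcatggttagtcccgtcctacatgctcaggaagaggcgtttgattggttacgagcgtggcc

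Idh1 and Idh2 are the cytosolic and mitochondrial isocitrate dehydrogenases that make NADPH. Idh1 stood at 29.2, 31.3 and 26.9 RPKM in beta, 21.2 and 22.1 in transdifferentiated and 18.6, 17.8 and 17.2 in alpha libraries. Idh2 stood at 63.8, 55.6 and 69.4 in beta, 78.2 and 63.5 in transdifferentiated and 40.4, 29.2 and 28.7 in alpha libraries. For Idh1 the transdifferentiated libraries lay between the groups without overlap, whereas for Idh2 they lay within or above the beta range. Both fell in alpha against beta cells, Idh1 by 0.67 (SE 0.09, adjusted p = 0.00104) and Idh2 by 1.03 (SE 0.13, adjusted p = 0.000932), and both calls were kept under all 18 alternatives. Idh1 was lower in transdifferentiated than in beta cells (fell by 0.41, SE 0.10, adjusted p = 0.0377), but omitting any one library ended that call (adjusted p 0.0511 to 0.109), as did limma voom (0.153). Idh2 was higher in transdifferentiated than in alpha cells by 1.15 (SE 0.14, adjusted p = 0.00146), under all 18 alternatives too, and differed by 0.12 from beta cells (SE 0.14, adjusted p = 0.588).

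Ogdh, the first subunit of 2-oxoglutarate dehydrogenase, stood at 51.9, 52.2 and 50.04 RPKM in beta, 53.5 and 44.4 in transdifferentiated and 38.1, 30.6 and 36.3 in alpha libraries. Suclg1, the alpha subunit common to both succinyl-CoA ligases, stood at 22.3, 22.6 and 24.2 in beta, 19.5 and 20.8 in transdifferentiated and 16.6, 15.2 and 16.1 in alpha libraries. Alpha libraries were lowest for both. The falls in alpha against beta cells were 0.56 for Ogdh (SE 0.12, adjusted p = 0.00808) and 0.52 for Suclg1 (SE 0.08, adjusted p = 0.00287), and the rises in transdifferentiated against alpha cells 0.48 (adjusted p = 0.0273) and 0.33 (adjusted p = 0.0341), both lost under median-ratio scaling (adjusted p 0.263 and 0.585). Quantile normalization moved the difference of Ogdh between alpha and beta cells to -0.21 (adjusted p = 0.241). Succinyl-CoA ligase has 2 beta subunits, one for GTP (Suclg2) and one for ATP (Sucla2). Suclg2, at 7.37, 7.50 and 6.59 RPKM in beta, 5.91 and 6.59 in transdifferentiated and 5.11, 4.69 and 4.79 in alpha libraries, fell by 0.48 in alpha against beta cells (SE 0.10, adjusted p = 0.00828), lost without alpha replicate 3 (0.0822). Sucla2, at 21.6, 22.04 and 20.5 in beta, 15.9 and 22.6 in transdifferentiated and 16.5, 17.1 and 16.2 in alpha libraries, did not pass (adjusted p = 0.077).

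The remaining citrate cycle members included genes at like levels in all groups. Cs, citrate synthase, which opens the cycle, stood at 44.4, 43.1 and 42.1 RPKM in beta, 38.4 and 48.4 in transdifferentiated and 40.2, 45.6 and 40.9 in alpha libraries, with a difference of -0.01 between alpha and beta cells (SE 0.11). Idh3b, Idh3g (subunits of the NAD-dependent isocitrate dehydrogenase) and Dlst (the succinyltransferase of 2-oxoglutarate dehydrogenase) differed by -0.15 to -0.06 between alpha and beta cells and did not pass in any comparison. Idh3a, the catalytic subunit of that isocitrate dehydrogenase, and Mdh2, the mitochondrial malate dehydrogenase, fell in alpha against beta cells by 0.48 (adjusted p = 0.00547) and 0.43 (adjusted p = 0.00641), and Mdh2 was higher in transdifferentiated than in alpha cells by 0.33 (adjusted p = 0.0321). Quantile normalization ended these calls (adjusted p = 0.187, 0.764 and 0.992), and omitting beta replicate 3 (0.0558) or alpha replicate 3 (0.0546) ended that of Mdh2 against beta cells.

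The malate-aspartate shuttle moves NADH into mitochondria through cytosolic and mitochondrial malate dehydrogenase and aspartate aminotransferase. Mdh1, the cytosolic malate dehydrogenase, stood at 161, 139 and 148 RPKM in beta, 118 and 119 in transdifferentiated and 70.7, 64.4 and 65.7 in alpha libraries. The 3 groups did not overlap. Mdh1 was 2.23-fold higher in beta than in alpha cells (log2 alpha minus beta -1.15, SE 0.09, adjusted p = 9.57e-05) and 1.77-fold higher in transdifferentiated than in alpha cells (log2 0.82, SE 0.10, adjusted p = 0.00118), both kept under all 18 alternatives. Its difference of -0.34 from beta cells did not pass (adjusted p = 0.0637), though it did under median-ratio scaling (adjusted p = 0.0435). Not all alternatives were looked up for this difference.

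Got1, the cytosolic aspartate aminotransferase, stood at 58.5, 33.7 and 35.4 RPKM in beta, 27.5 and 33.4 in transdifferentiated and 15.1, 16.5 and 14.3 in alpha libraries. Beta replicate 1 stood above all others, and every transdifferentiated library was below every beta library. Got1 fell by 1.35 in alpha against beta cells (SE 0.21, adjusted p = 0.0024, kept under all 18 alternatives) and was higher by 0.94 in transdifferentiated than in alpha cells (SE 0.23, adjusted p = 0.0212), with 10 of 18 alternatives keeping that call. Got2, its mitochondrial partner, stood at 26.1, 24.6 and 23.9 in beta, 21.1 and 19.8 in transdifferentiated and 15.7, 15.6 and 12.9 in alpha libraries, again without overlap of the groups. Got2 fell by 0.77 in alpha against beta cells (SE 0.10, adjusted p = 0.000907) and was higher by 0.48 in transdifferentiated than in alpha cells (SE 0.11, adjusted p = 0.0147), with 12 of 18 alternatives keeping the second call, though 47.2% of its 50-base words recur in other genes. Of the carriers of the shuttle, alpha cells had less RNA than beta cells for the aspartate-glutamate exchanger Slc25a12 (fell by 0.50, adjusted p = 0.0116) and the oxoglutarate-malate exchanger Slc25a11 (fell by 0.33, adjusted p = 0.0303), the latter with 7 of 18 alternatives against the call. Slc25a12 stood at 17.6, 14.1 and 13.6 RPKM in beta, 14.01 and 13.8 in transdifferentiated and 10.3, 10.5 and 10.2 in alpha libraries. Slc25a13, the other aspartate-glutamate exchanger, was at 2.72, 3.31 and 3.01, at 1.90 and 4.13, and at 1.51, 2.04 and 1.55, and did not pass.

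In the glycerol phosphate shuttle, the cytosolic enzyme gene Gpd1 stood at 12.4, 12.2 and 11.8 RPKM in beta, 9.50 and 10.1 in transdifferentiated and 7.64, 7.70 and 7.47 in alpha libraries. Groups did not overlap and replicates lay close together. Gpd1 fell by 0.63 in alpha against beta cells (SE 0.08, adjusted p = 0.00108, kept under all 17 alternatives that tested it) and was higher by 0.34 in transdifferentiated than in alpha cells (SE 0.09, adjusted p = 0.0279), with 12 of 17 alternatives against. Gpd2, the mitochondrial enzyme, stood at 23.5, 28.1 and 20.8 in beta, 28.3 and 25.6 in transdifferentiated and 24.8, 24.99 and 23.7 in alpha libraries, and did not pass in any comparison.

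Me1, the cytosolic malic enzyme that makes pyruvate and NADPH from malate, was the one member called higher in transdifferentiated cells than in both references, a pattern shown by 2.39% of all tested genes. Its gene is at chr9:86581371-86695953 on the - strand (GRCm38, GENCODE M21). Me1 stood at 11.9, 10.3 and 10.2 RPKM in beta, 14.6 and 17.98 in transdifferentiated and 12.1, 9.19 and 10.2 in alpha libraries. Both transdifferentiated libraries, with 70 and 150 reads, lay above all 6 others. The differences were 0.58 from beta cells (SE 0.15, adjusted p = 0.047) and 0.59 from alpha cells (SE 0.15, adjusted p = 0.0229). The first was lost in 14 of 18 alternatives, including the omission of any one library other than alpha replicate 1 (adjusted p 0.0657 to 0.169), and limma voom gave 0.115. The second was lost in 8, including without transdifferentiated replicate 2 (0.102), alpha replicate 2 (0.0633) and alpha replicate 3 (0.106). Of its 50-base words 30.4% recur in other genes, and an exon of A330041J22Rik overlaps it on the other strand.

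Me3, a mitochondrial malic enzyme, was low everywhere, at 0.114, 0.141 and 0.215 RPKM in beta, 0.769 and 0.473 in transdifferentiated and 0.0212, 0 and 0.00485 in alpha libraries. These values are 31, 44 and 45 reads, 14 and 15 reads, and 4, 0 and 1 reads. Both shallow transdifferentiated libraries thus showed higher levels than any beta or alpha library. In the fit with no filter on low values, where Me3 could be tested, it was called higher in transdifferentiated than in beta (0.73, adjusted p = 0.0399) and alpha cells (1.16, adjusted p = 0.0033) and lower in alpha than in beta cells (fell by 0.42, adjusted p = 0.0443).

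The share of 1 gene in the summed RPKM of the members grouped under the same enzyme name was compared over the 3 groups. The exact permutation test, run for 12 shares, does not depend on library scaling. Genes outside the members were not summed, among them Me2 (11.8 to 14.5 RPKM over all libraries) and Eno3 (3.70 to 14.9). Of the 12 shares, 4 passed after Benjamini-Hochberg adjustment over them. Mdh1 made up 71.9% ± 1.32 (SD, n = 3) of malate dehydrogenase RNA in beta, 68.1% ± 0.267 (SD, n = 2) in transdifferentiated and 60.1% ± 1.22 (SD, n = 3) in alpha cells (exact permutation p = 0.00714, adjusted 0.0286). Gpd1 made up 33.7% ± 3.13 of glycerol phosphate dehydrogenase RNA in beta, 26.7% ± 2.27 in transdifferentiated and 23.7% ± 0.240 in alpha cells (exact permutation p = 0.0107, adjusted 0.0321). Thus the cytosolic enzyme held a smaller share in alpha cells for both.

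Aldoa held 97.5% ± 0.428, 96.6% ± 0.390 and 93.4% ± 1.30 of aldolase RNA in the same order (exact permutation p = 0.00714, adjusted 0.0286). Me1 held 98.6% ± 0.560, 96.2% ± 1.72 and 99.9% ± 0.0901 of the RNA of Me1 and Me3 (exact permutation p = 0.00357, the smallest the design allows, adjusted 0.0286). For Me1 the transdifferentiated libraries were lowest and the alpha libraries highest. No share remained called when transdifferentiated replicate 1 or any alpha library was left out (lowest adjusted p 0.0571), and that of Aldoa was also lost without any one beta library (adjusted p 0.0857 to 0.137). With 1 library fewer the exact test has fewer assignments and a larger smallest p, so shares pass less easily. The Mdh1 share, alpha minus beta, was -11.8, -11.1 and -12.3 points without alpha replicates 1, 2 and 3, against -11.8 with all libraries. The Idh1 share of NADP isocitrate dehydrogenase RNA, 31.7% ± 4.07, 23.6% ± 3.23 and 35.6% ± 3.54, did not pass (exact permutation p = 0.0536, adjusted 0.129), nor did that of Got1 (62.2%, 59.7% and 51.0%, adjusted 0.171) or those of Pfkl, Pfkm, Pfkp, Eno1, Suclg2 and Slc25a12 (adjusted p 0.465 to 0.907).

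**Figure D3:**
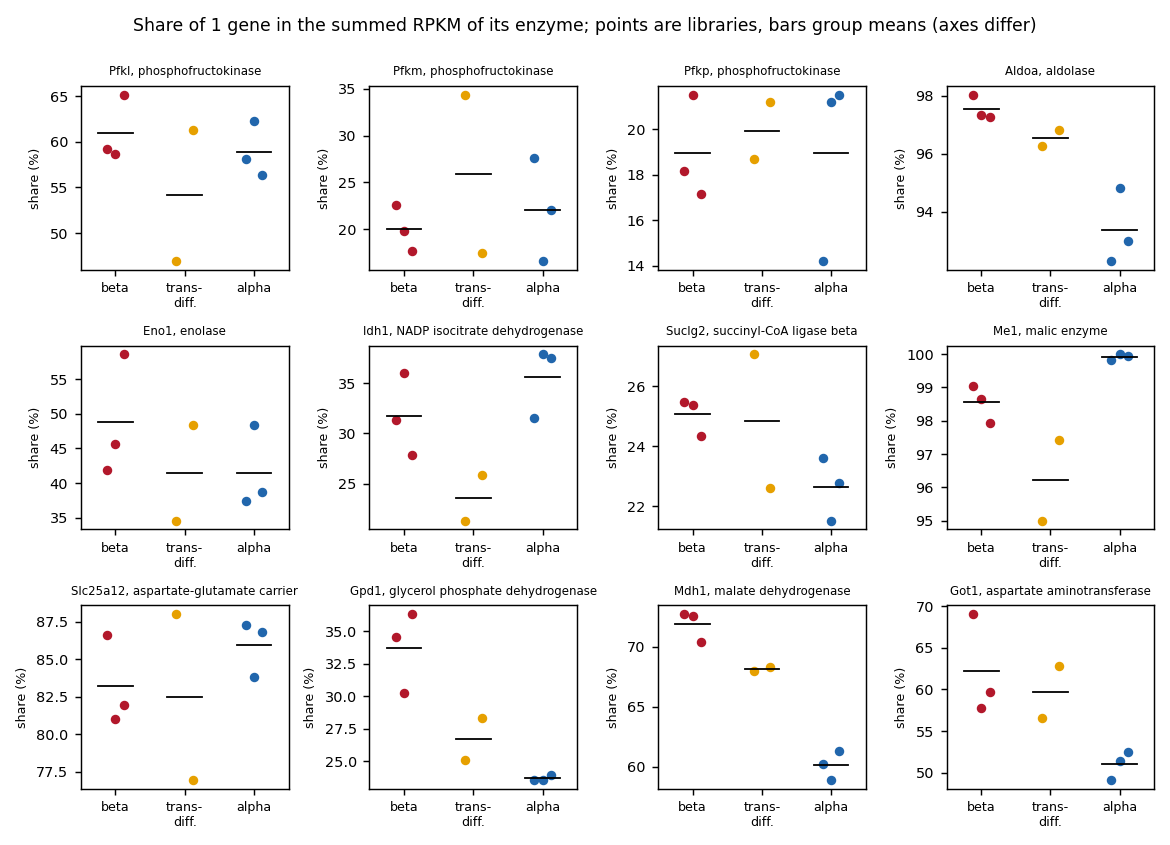
Share, in percent, of 1 gene in the summed RPKM of the members grouped under the same enzyme name, for 12 shares. Points are libraries, bars are group means, and vertical axes differ and do not start at 0. Mdh1 falls from a mean of 71.9% in beta to 60.1% in alpha libraries without overlap of the 3 groups, whereas the 3 phosphofructokinase shares overlap.

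Glycolysis genes varied together between replicates of a group. Of the 13 glycolysis members, 12 were highest in replicate 3 among the beta libraries and 12 in replicate 2 among the alpha libraries, and 12 were higher in transdifferentiated replicate 2 than in replicate 1. Over all tested genes these shares were 30.6%, 38.9% and 45.3%. The median fold of the glycolysis members was 1.43 for beta replicate 3 over the other beta libraries and 1.69 for alpha replicate 2 over the other alpha libraries. For the citrate cycle members the same folds were 0.962 and 0.995. Alpha replicates 1 and 2, which share a title number, were thus the lowest and the highest alpha library for most glycolysis genes. Standard errors for alpha minus beta cells were 0.26 for Aldoa and 0.32 for Eno1, against 0.09 for Pcx and Mdh1. They were not large in every glycolysis member (0.11 for Eno2, 0.10 for Pfkm) nor small in every other member (0.21 for Got1). The part of the shared variation in them was not tested.

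A list of 16 genes known to respond to low oxygen, among them Ldha, Pdk1, Vegfa and Egln3, was set beside them after these values were seen. Of its 14 tested genes, none of which is a member, 13 were highest in beta replicate 3, 14 in alpha replicate 2 and 12 in transdifferentiated replicate 2 of its pair, with median folds of 1.43 and 1.78 for the first 2 libraries. Acinar markers were highest in beta replicate 2 (3222 RPKM) and alpha replicate 2 (2264), so they followed the glycolysis genes in the alpha but not in the beta libraries. The part of these in the result was not tested. Without beta replicate 3 and alpha replicate 2, a setting chosen after seeing the data, alpha cells were lower than beta cells in 19 members and higher in 0 (2510 of 12861 genes called in either direction), 12 were higher in transdifferentiated than in alpha cells (2011 genes), and 0 were called between transdifferentiated and beta cells (3 genes). Both libraries are male and carry the title letter b, which neither transdifferentiated library carries.

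**Figure D4:**
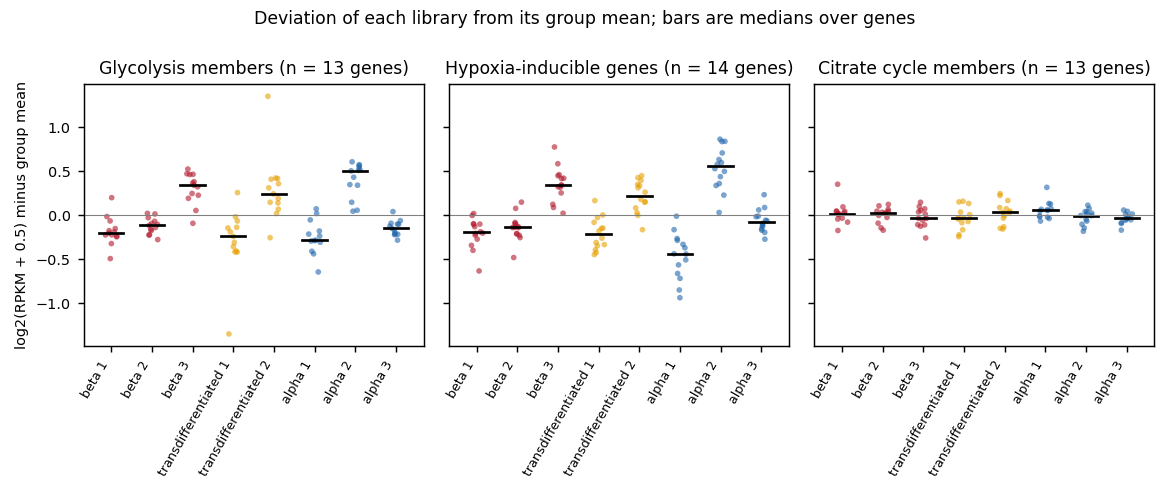
Deviation of each library from the mean of its own group on the log2(RPKM + 0.5) scale (vertical axis), with points for genes and bars for medians. The medians of the 13 glycolysis members and of the 14 oxygen-responsive genes lie above 0 in beta replicate 3, transdifferentiated replicate 2 and alpha replicate 2, while those of the 13 citrate cycle members stay near 0 in all 8 libraries, with single genes such as Fh1 in beta replicate 1 (0.35) further out.

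Promoters of 2 glycolysis members that moved together between replicates are shown because ACGTG is a form of the core of the element bound by hypoxia-inducible factors. This search was chosen after seeing the data. Both hold the letters, in capitals, on one strand or the other (as ACGTG or CACGT). The Pgk1 stretch is the 250 bases before its only start in the RefSeq table (GRCm38.p6, chrX:106186850-106187099, + strand), and that of Aldoa lies before the second of its 3 starts (chr7:126799255-126799504, - strand), taken because it holds a match.
Pgk1: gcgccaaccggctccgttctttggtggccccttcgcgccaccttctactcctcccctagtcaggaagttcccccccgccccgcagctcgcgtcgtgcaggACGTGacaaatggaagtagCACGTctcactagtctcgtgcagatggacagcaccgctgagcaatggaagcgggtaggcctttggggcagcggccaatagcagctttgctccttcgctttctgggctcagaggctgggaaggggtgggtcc
Aldoa: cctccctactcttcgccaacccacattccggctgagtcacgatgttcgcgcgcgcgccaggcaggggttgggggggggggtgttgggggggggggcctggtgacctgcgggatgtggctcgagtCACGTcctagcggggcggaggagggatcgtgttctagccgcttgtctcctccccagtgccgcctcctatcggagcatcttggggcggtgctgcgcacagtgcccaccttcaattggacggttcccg

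The search was run over the 250 bases before every start of the 42 members in that table (Idh3a and Gpd1 were not matched). ACGTG occurred on either strand before 20 of 61 member starts (32.8%) and before 16.6% of all 32851 starts. The 20 starts belong to 13 of the 42 members (31.0%), a share per gene that was not counted over all genes. Members of all roles were pooled, and glycolysis members were not counted apart. The part of these letters in the results was not tested. CACGTG, a palindrome that contains ACGTG on both strands, occurred before 6 of 61 member starts (9.84%) and 6.02% of all starts. Other forms of that core were not searched for, so a stretch without ACGTG, such as that of Fh1, may still hold one. A match is a description of letters and not of binding, and RPKM per gene cannot tell which start was used.

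Where transdifferentiated cells lay between alpha and beta cells was described for the 25 members lower in alpha cells, with 0% at the alpha mean and 100% at the beta mean of RPKM. Their median position was 61.0%, and that of all 3514 genes lower in alpha cells was 73.1%. Positions ran from 20.5% for Pgk1, 31.4% for Fh1 and 33.7% for Idh1 to 96.8% for Pcx, 114% for Eno2, 126% for Idh2 and 137% for Pfkm. The 2 transdifferentiated libraries lay close together for Mdh1 (61.5% and 62.8%) and Eno2 (111% and 116%), at 21.1% and 41.7% for Fh1, and far apart for Pfkm (207% and 66.5%), Pgk1 (-12.5% and 53.6%) and Gapdh (29.8% and 102%). The alpha marker sum of these libraries lay between the 2 references as well (20181 to 20271 RPKM), and its part in these positions was not tested.

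**Figure D5:**
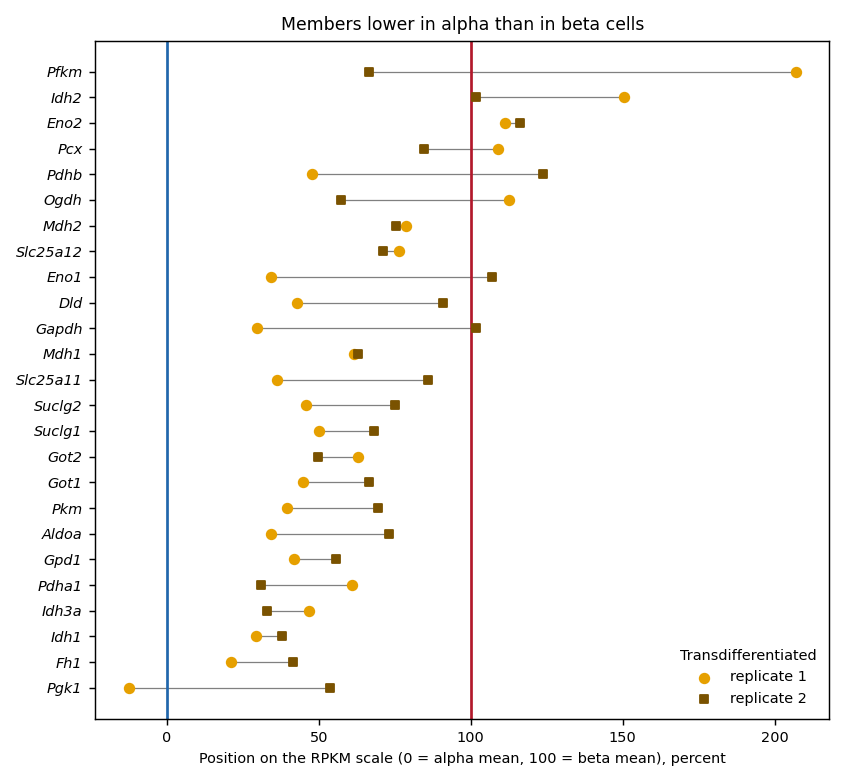
Position of each transdifferentiated library between the alpha mean (0%) and the beta mean (100%) on the RPKM scale (horizontal axis) for the 25 members lower in alpha than in beta cells, sorted by the mean of both libraries. Fh1 and Idh1 sit closer to the alpha than to the beta mean in both libraries (21.1% to 41.7%), while Eno2 and Idh2 sit past the beta mean in both.

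Sex was a term of the fit and gave no called member. Of all genes 0.0456% were called between female and male libraries. Among members, 0 were called by limma or limma voom and 1 passed before adjustment, Pfkm (female minus male -0.31, adjusted p = 0.843), named after its value was seen. The difference between alpha and beta cells did not differ detectably between the sexes for any member (lowest adjusted p of the interaction 0.999), with 1 or 2 libraries per sex in a group.

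Other genes of the pathway were taken from a list of 51, of which 45 were tested. In alpha against beta cells 6 were higher and 21 lower (13.3% and 46.7%, against 16.9% and 26.7% of all tested genes). In transdifferentiated against beta cells 6 were higher and 3 lower (13.3% and 6.67%, against 9.1% and 2.9%). In transdifferentiated against alpha cells 17 were higher and 5 lower (37.8% and 11.1%, against 23.2% and 6.67%). Pdk4, a kinase that switches pyruvate dehydrogenase off, stood at 0.305, 1.08 and 0.477 RPKM in beta, 13.3 and 14.3 in transdifferentiated and 127, 108 and 97.9 in alpha libraries. Fbp1, fructose-1,6-bisphosphatase, which runs against phosphofructokinase, stood at 3.27, 3.84 and 3.48 in beta, 36.4 and 33.6 in transdifferentiated and 67.6, 78.2 and 83.8 in alpha libraries. Both lay between the references without overlap, with rises over beta cells of 3.73 for Pdk4 (SE 0.27, adjusted p = 0.00163) and 3.15 for Fbp1 (SE 0.12, adjusted p = 0.000294). G6pc2, the islet glucose-6-phosphatase that reverses glucose phosphorylation, stood at 1019 to 1245 RPKM in beta, 25.4 to 29.3 in alpha and 479.5 and 589 in transdifferentiated libraries and fell by 1.08 in transdifferentiated against beta cells (SE 0.13, adjusted p = 0.0057). Slc2a2, the glucose transporter of beta cells, stood at 43.2 to 49.5, at 28.6 and 14.7, and at 0.619 to 0.801, and was lower in transdifferentiated than in beta cells by 1.17 (SE 0.24, adjusted p = 0.0285). Hk1, a hexokinase, was higher in alpha cells (6.42 to 10.1 RPKM) than in transdifferentiated cells (1.88 and 1.41), where it fell by 1.93 (SE 0.22, adjusted p = 0.00097), and was lowest in beta cells (0.358 to 0.427).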

How the data were processed

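The authors deposited 1 table of RPKM for 8 libraries of sorted islet cells. The submitters' processing notes name STAR 2.5, featureCounts and edgeR 3.14.0, and as genome GRCm38.p4. Which annotation and strand setting were used, how reads with several matches were counted and which library size the RPKM rest on: not given in the sources used here. The kit, TruSeq RNA v2 per the labels' protocols, does not mark strand, so reads of genes that overlap on opposite strands cannot be told apart (16 members have such an exon overlap).

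Of 46959 entries, 4 with repeated names were left out, and 27 carried names turned into dates. All columns were used. RPKM values are multiples of the value of 1 read. Exon lengths from GENCODE M21 gave whole reads (within 0.01) in every library for 78.5% of the expressed genes found there (19910 of 25353). The length of a further 6876 was solved from their steps (2 of them, Gcg and Ins2, within 0.05). For a 2 kb gene, a single read equals 0.402 and 0.231 RPKM in transdifferentiated replicates 1 and 2, and between 0.0234 and 0.0387 elsewhere. The implied library size was 0.975 to 0.979 times the recovered reads in every library.

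The test was limma 3.58.1 under R 4.3.3 (lmFit and eBayes, with a trend). It used log2(RPKM + 0.5) of 13172 genes with at least 1 RPKM in at least 2 libraries, in 1 fit whose terms were sex and cell group. Benjamini-Hochberg adjusted p-values cover all these genes, and an adjusted p under 0.05 is a call. Fold changes on this scale understate those of low genes. Shares of 1 gene in the summed RPKM of the members under its enzyme name were compared by the between-group sum of squares. All 560 assignments of libraries to groups were used. The scripts were tested on simulated data with changes put into the alpha libraries only. For alpha minus beta cells, the test recovered 48.2% of the 2-fold and 95.2% of the 4-fold changes that entered it. Recovery in the shallower transdifferentiated libraries was not simulated, so genes that did not pass there may still differ. Values per library are given, within each role, for up to 6 called members with the largest difference, for members outside both references and for partners of such genes. Alternatives covered the pseudocount, the filter, the scaling, the terms, limma voom on recovered reads, and leaving out each library. The members and lists were chosen with earlier results of these data known. Shared 50-base words were counted in GENCODE M21 transcripts, and promoter sequences are from RefSeq (GRCm38.p6).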

Additional observations from a re-analysis of the deposited data

How the results depend on the processing

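Of 47 calls of single members between cell groups, 15 were kept under all of the 18 alternatives that tested them and 0 reversed in sign. Kept throughout were the lower levels in alpha than in beta cells of Pcx, Fh1, Idh1, Idh2, Mdh1, Got1, Got2, Gpd1, Eno2 and Pkm and the higher levels in transdifferentiated than in alpha cells of Pcx, Idh2, Mdh1, Eno2 and Pfkm. Counts of called members moved more. For alpha minus beta cells, the 1 higher member became 0 with no filter on low values, with a mean RPKM of at least 10 and without beta replicate 3 and alpha replicate 2, and 2 with quantile normalization (not the same gene), while the 25 lower ones became 17 with quantile normalization. For transdifferentiated minus beta cells, the 1 higher member became 0 with a mean RPKM of at least 10, either other scaling, the title letter b as a term, limma voom, and without both named libraries. The 2 lower ones became 0 with no filter, 7 with median-ratio scaling, 1 with limma voom and 0 without both named libraries. For transdifferentiated minus alpha cells, the 18 higher members became 5 with median-ratio scaling, 6 with quantile normalization, 8 with the letter b as a term and 8 with limma voom, and the 0 lower ones became 1, 2 (Mpc2 and Dlst) with quantile normalization and 1 with no sex term. The causes were not tested.

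Leaving out 1 library gave 0 to 1 higher and 14 to 33 lower members for alpha minus beta, 0 to 1 and 0 to 3 for transdifferentiated minus beta, and 6 to 15 and 0 to 1 for transdifferentiated minus alpha cells. The lowest of these counts came without alpha replicate 3 (14 and 6). Calls over all genes in either direction then fell as well, from 5743 to 3117 for alpha minus beta cells. For transdifferentiated minus alpha cells they fell from 3932 to 2447. Without either transdifferentiated library its group holds 1 sample, which is assumed to vary like the others. Between 0 and 5 isoform shares passed, against 4 with all libraries. Adding Eno1b to Eno1 left 4. The sex contrast called 0 members in each alternative that has a sex term. Quantile normalization and median-ratio scaling moved the median of all genes for transdifferentiated minus alpha cells to -0.05. The labels give the groups no shared replicate number, so no pairing stated by them could be used. Sex and the letter b form 4 sets with at most 1 library of each group. With these sets as a term, a setting chosen after seeing the data that leaves 2 residual degrees of freedom and is not among the 18 alternatives, alpha minus beta cells gave 0 higher and 28 lower members, transdifferentiated minus beta cells 0 and 3, and transdifferentiated minus alpha cells 14 and 0. Over all genes this setting called 5605, 1943 and 3165 in either direction in the same order. It kept 36 of the 47 calls, all 15 above included, and 47 kept their sign. Both transdifferentiated libraries lack the letter b that beta and alpha replicates 2 and 3 carry. Low depth limits the transdifferentiated values most for Mpc1, Me3, Slc25a13, Pgam1, Pdhx and Pgk1 (3 to 17 reads in transdifferentiated replicate 1).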
